A study of Mus musculus with 32 samples.

Results

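Atmin, Dynll1 and Dynll2 are 3 of the 39017 genes in the count table and were followed through 4 mouse embryonic fibroblast lines. They were chosen by name: Atmin encodes the zinc finger protein ATMIN (also called ASCIZ), and Dynll1 and Dynll2 encode the LC8 dynein light chains, of which Dynll1 is a known transcriptional target of ATMIN. All 3 genes passed the filter on low counts, with 18484 genes tested in all.

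RNA sequencing covered 32 samples in 16 groups of 2. Of the 4 lines, 1 is labelled an ATMIN knock-out and is paired with the wild-type line wtATMIN, and 1 is labelled an ATM knock-out and is paired with wtATM. The cells received aphidicolin (APH), which stalls replication forks by blocking DNA polymerases, at 1 µM, or DMSO as vehicle, and were taken at 24 h or 4 h. As each knock-out is a single line, its genotype cannot be told apart from other features of the line, and neither the allele nor any driver of the deletion is given in the labels. Nothing in the labels shows that the 2 samples of a group were separate cultures, so each p-value measures only the spread between samples, which may be technical.

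ATMIN was found as a partner of ATM, the kinase at the head of the response to DNA double-strand breaks. It is also a transcription factor that switches on Dynll1 through the Dynll1 promoter. The DYNLL1 protein binds back to many short sites on ATMIN and dampens its activity, which makes a feedback loop between the gene and its activator. LC8 light chains were named as subunits of the dynein motor, which walks along microtubules, but they also serve as small dimerising hubs for many partners outside the motor. DYNLL2 is the close paralog of DYNLL1.

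The coding sequences of Dynll1 and Dynll2 are shown because the results turn on whether reads of the paralogs can be told apart. Capitals mark bases that differ between them.
Dynll1: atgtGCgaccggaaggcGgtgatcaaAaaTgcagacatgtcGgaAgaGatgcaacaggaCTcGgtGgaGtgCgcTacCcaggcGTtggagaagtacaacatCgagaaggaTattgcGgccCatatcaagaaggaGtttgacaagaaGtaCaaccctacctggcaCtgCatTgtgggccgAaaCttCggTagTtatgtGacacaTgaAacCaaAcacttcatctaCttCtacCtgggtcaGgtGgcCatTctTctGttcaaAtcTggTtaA
Dynll2: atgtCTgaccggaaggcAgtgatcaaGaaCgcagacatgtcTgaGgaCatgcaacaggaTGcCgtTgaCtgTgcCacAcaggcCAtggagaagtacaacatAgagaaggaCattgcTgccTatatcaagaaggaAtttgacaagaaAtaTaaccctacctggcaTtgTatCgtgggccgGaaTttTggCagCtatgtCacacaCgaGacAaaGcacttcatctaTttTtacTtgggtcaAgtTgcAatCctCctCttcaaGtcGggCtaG
These are the annotated coding sequences of GENCODE release M21 on GRCm38, stop codon included, 5′ to 3′. Of the 270 bases 51 differed, 46 of them at codon position 3, so the sequences were 81.1% identical. Only 6 of the 89 residues they encode differed, an identity of 93.3%. The longest run shared without a difference was 16 bases. Dynll1 shared 25 stretches of 50 bases with transcripts of Tmbim1, and no other gene shared 20 or more such stretches with a member.

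No promoter of Dynll2 was available in the reference set used. The promoters of Dynll1 and Atmin are shown. Each spans the annotated start of the gene (RefSeq, GRCm38.p6), most of it upstream, and is written 5′ to 3′ on the strand of the gene. Capitals mark the motifs CCAAT and GGGCGG, searched on both strands.
Dynll1, chr5:115300941-115301240, minus strand: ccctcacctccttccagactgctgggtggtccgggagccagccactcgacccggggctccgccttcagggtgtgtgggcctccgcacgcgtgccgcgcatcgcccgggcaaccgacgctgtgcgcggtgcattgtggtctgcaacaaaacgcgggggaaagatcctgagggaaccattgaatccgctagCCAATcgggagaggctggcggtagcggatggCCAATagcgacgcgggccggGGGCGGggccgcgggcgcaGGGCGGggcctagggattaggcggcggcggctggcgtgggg
Atmin, chr8:116943143-116943442, plus strand: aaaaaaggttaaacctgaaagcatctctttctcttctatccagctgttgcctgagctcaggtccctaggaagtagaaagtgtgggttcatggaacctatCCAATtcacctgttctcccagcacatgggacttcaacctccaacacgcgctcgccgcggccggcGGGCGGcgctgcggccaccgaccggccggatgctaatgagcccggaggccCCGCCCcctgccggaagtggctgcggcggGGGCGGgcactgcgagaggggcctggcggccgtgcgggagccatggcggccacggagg
The Dynll1 window held 2 CCAAT and 2 GGGCGG motifs at 71.0% GC, and the Atmin window held 1 CCAAT and 3 GGGCGG motifs at 64.7% GC. The motif TATAAA was in neither window. Over the 32851 promoters of the same table CCAAT was in 37.4%, GGGCGG in 35.7% and TATAAA in 13.6%, so these letters are common and a match is only a description.

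Total counts per sample ran from 9321329 to 21020662. The ATM knock-out APH 4 h libraries stood apart: replicate 2 was the shallowest of the 32, and in replicate 1 the ribosomal sequence Gm42418 took 97900 CPM (counts scaled to a common library size with TMM factors), the highest of all libraries. The summed level of 9 fibroblast markers was 7285 CPM or more in each sample. Of the 9, 1 stayed below 1 CPM in all samples of the ATMIN knock-out, as did 1 in wtATMIN and 1 in wtATM. The summed levels of epithelial, endothelial and muscle markers were at most 7.94 CPM in any sample. Those of 5 blood markers were at most 18.8 CPM and those of 5 neural markers at most 70.4 CPM. In each line 3 or 4 of the 5 blood markers, and 3 or 4 of the 5 neural markers, stayed below 1 CPM, so these sums rest on few genes. Atm lay between 17.8 and 45.5 CPM in the 8 ATM knock-out samples and between 43.1 and 65.1 CPM in the 8 wtATM samples, and after APH for 24 h these groups overlapped. Since reads from anywhere in the gene are counted, these levels do not test the deletion, and the ATM pair is described as labelled.

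**Figure D1:**
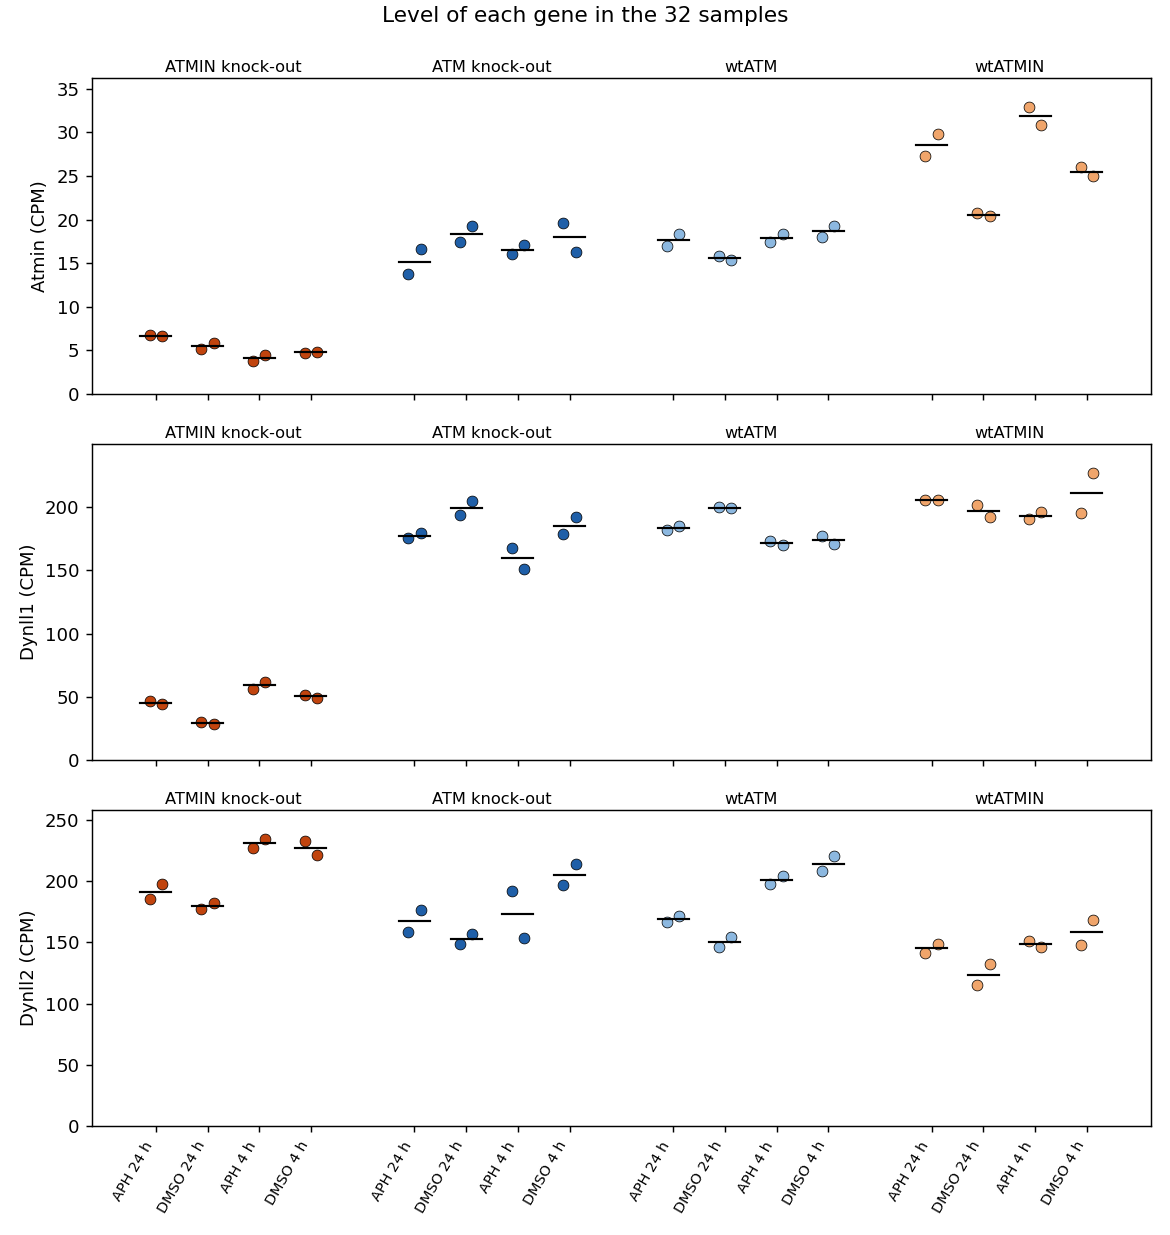
Level of Atmin, Dynll1 and Dynll2 in CPM (counts scaled by the TMM library size) on linear axes that start at 0. Each point is 1 sample and each bar the mean of 2. Atmin and Dynll1 are low in all 8 ATMIN knock-out samples, and Dynll2 is high there relative to wtATMIN.

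Atmin (ENSMUSG00000047388; mm10 chromosome 8, 116943393 to 116960445, plus strand) was low, but not absent, in every ATMIN knock-out sample. In the knock-out it stood at 6.77 and 6.65 CPM after APH for 24 h, 5.20 and 5.81 in DMSO at 24 h, 3.77 and 4.42 after APH for 4 h and 4.70 and 4.85 in DMSO at 4 h. The same conditions gave 27.2 and 29.8, 20.7 and 20.4, 32.9 and 30.9, and 26.0 and 25.0 CPM in wtATMIN. All 8 knock-out samples were below all 8 wtATMIN samples. The knock-out values rest on 59 to 129 reads per sample, against 336 to 542 in wtATMIN. The log2 difference was −2.08 ± 0.11 and −1.90 ± 0.12 (SE) at 24 h, with APH and in DMSO, and −2.97 ± 0.13 and −2.41 ± 0.12 at 4 h. The count covers the whole gene, so the reads left in the knock-out do not show which exons they came from. In bulk RNA, fewer cells that express a gene and less RNA per cell cannot be told apart.

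Dynll1 (ENSMUSG00000009013; mm10 chromosome 5, 115297110 to 115300999, minus strand) was also low in every ATMIN knock-out sample. In the ATMIN knock-out it stood at 46.5 and 44.5 CPM after APH for 24 h, 30.3 and 28.9 in DMSO at 24 h, 56.5 and 61.6 after APH for 4 h and 51.6 and 49.0 in DMSO at 4 h. In wtATMIN the samples of these conditions had 205 and 206, 202 and 192, 190.3 and 196, and 195 and 227 CPM. No knock-out sample came near the wild-type range, and the lowest values were those of DMSO at 24 h. There the knock-out held 0.150 of the wtATMIN level (log2 −2.73 ± 0.08, adjusted p = 3e-26), and after APH for 4 h it held 0.305 of it (−1.71 ± 0.07, adjusted p = 1.24e-20), the smallest of the 4 differences. For Atmin the order of the 4 differences was the reverse, with the largest after APH for 4 h and the smallest in DMSO at 24 h. All adjusted p-values on genes are those of the quasi-likelihood test of edgeR, adjusted by Benjamini-Hochberg over 18484 genes. Among 2442 genes of any expression level called lower in all 4 conditions, Dynll1 ranked 507 by mean log2 difference and Atmin 471. Many genes of this line therefore lay further below wtATMIN. By smallest p over 18484 genes, Dynll1 ranked 33, 21, 47 and 23 in APH 24 h, DMSO 24 h, APH 4 h and DMSO 4 h. Atmin ranked 240, 482, 59 and 116.

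Dynll2 (ENSMUSG00000020483; mm10 chromosome 11, 87979525 to 87987533, minus strand) was higher in the ATMIN knock-out than in wtATMIN. The ATMIN knock-out had 185 and 197 CPM after APH for 24 h, 177 and 182 in DMSO at 24 h, 227 and 234 after APH for 4 h and 233 and 221 in DMSO at 4 h. The wtATMIN samples had 141 and 149, 115 and 132, 151 and 146, and 148 and 169 CPM. Within each condition both knock-out samples were above both wtATMIN samples. The knock-out was at 1.32 and 1.45 times wtATMIN at 24 h, with APH and in DMSO (log2 0.40 ± 0.08, adjusted p = 7.13e-05, and 0.54 ± 0.08, adjusted p = 5.98e-07). At 4 h it was at 1.55 and 1.44 times wtATMIN, with APH and in DMSO (0.63 ± 0.08, adjusted p = 3.31e-08, and 0.52 ± 0.08, adjusted p = 1.22e-06). These differences were far smaller than those of Dynll1, and Dynll2 ranked 1465 of the 2104 genes called higher in all 4 conditions. In wtATM, the other wild-type line, Dynll2 was also above wtATMIN, as given below. It stood at 1.165 and 1.22 times wtATMIN at 24 h, with APH and in DMSO, and at 1.35 and 1.35 times at 4 h.

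All 3 members were therefore called in all 4 comparisons of the ATMIN pair. Large parts of the transcriptome also differed between these lines: 50.6% and 49.6% of tested genes were called at 24 h, with APH and in DMSO, and 42.1% and 44.9% at 4 h. A call alone therefore does not set a member apart in this pair. The summed level of 9 fibroblast markers also differed between these lines, with 15640 to 32350 CPM in the ATMIN knock-out and 7285 to 12440 CPM in wtATMIN, and its part in the differences was not tested. The authors' deposited table gave the same directions, with log2 fold changes of Dynll2 of 0.40 and 0.53 at 24 h and 0.65 and 0.52 at 4 h, with APH and in DMSO.

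The ATM pair was then set beside it, since ATMIN is named for its link to ATM. Dynll1 had 175 and 179.5 CPM after APH for 24 h, 193 and 205 in DMSO at 24 h, 168 and 151 after APH for 4 h and 178 and 192 in DMSO at 4 h in the ATM knock-out. In wtATM it had 182 and 185, 199.9 and 199, 174 and 170.2, and 177 and 171 CPM. The groups overlapped in DMSO at 24 h, and elsewhere lay close together. Its log2 differences were −0.05 ± 0.07 and −0.00 ± 0.07 at 24 h, with APH and in DMSO, and −0.11 ± 0.07 and 0.09 ± 0.07 at 4 h, and none passed the test. The APH 4 h value was called without ATM knock-out replicate 1 (−0.20) and with library size as the only scaling (−0.18).

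Atmin had 13.8 and 16.6, 17.4 and 19.3, 16.1 and 17.0, and 19.6 and 16.3 CPM in the ATM knock-out, in the same order of conditions. In wtATM it had 17.0 and 18.3, 15.8 and 15.4, 17.4 and 18.3, and 18.0 and 19.3 CPM. The knock-out samples were above wtATM in DMSO at 24 h (log2 0.23 ± 0.11, adjusted p = 0.0611) and below it after APH for 24 h (−0.21 ± 0.11, adjusted p = 0.0901), and neither difference passed the test. The first was called without knock-out replicate 1 (0.31), and the second without knock-out replicate 2 (−0.36) and with library size as the only scaling (−0.29). At 4 h the differences were −0.11 ± 0.12 with APH and −0.05 ± 0.11 in DMSO.

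Dynll2 had 159 and 176, 149 and 157, 192 and 153, and 196 and 214 CPM in the ATM knock-out, against 167 and 171, 146 and 154, 198 and 204, and 208 and 221 CPM in wtATM. It passed the test in 1 condition, APH for 4 h, where the knock-out was lower, at a log2 difference of −0.21 ± 0.08 (adjusted p = 0.0225). That call rested on the shallow replicate 2 of the ATM knock-out, whose 153 CPM lay far below the 192 CPM of replicate 1. Without replicate 2 the difference was −0.07 and not called, and without replicate 1 it was −0.40. The call was also lost without wtATM APH replicate 2 (−0.20) and in a fit of the compared groups alone (−0.24). In the other 3 conditions neither edgeR nor DESeq2 called a member, and 1 value, that of Atmin in DMSO at 24 h, had an unadjusted p under 0.05. Of all tested genes 61.3% and 59.3% were called in this pair at 24 h, with APH and in DMSO, and 58.9% and 55.2% at 4 h, against 1 call among the 12 tests of the members. The sum of 5 neural markers ran from 31.3 to 44.7 CPM in the ATM knock-out and from 5.86 to 11.6 CPM in wtATM, and that of 5 blood markers from 0.951 to 1.99 CPM in the ATM knock-out and from 9.08 to 18.8 CPM in wtATM. Their part in these values was not tested.

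**Figure D2:**
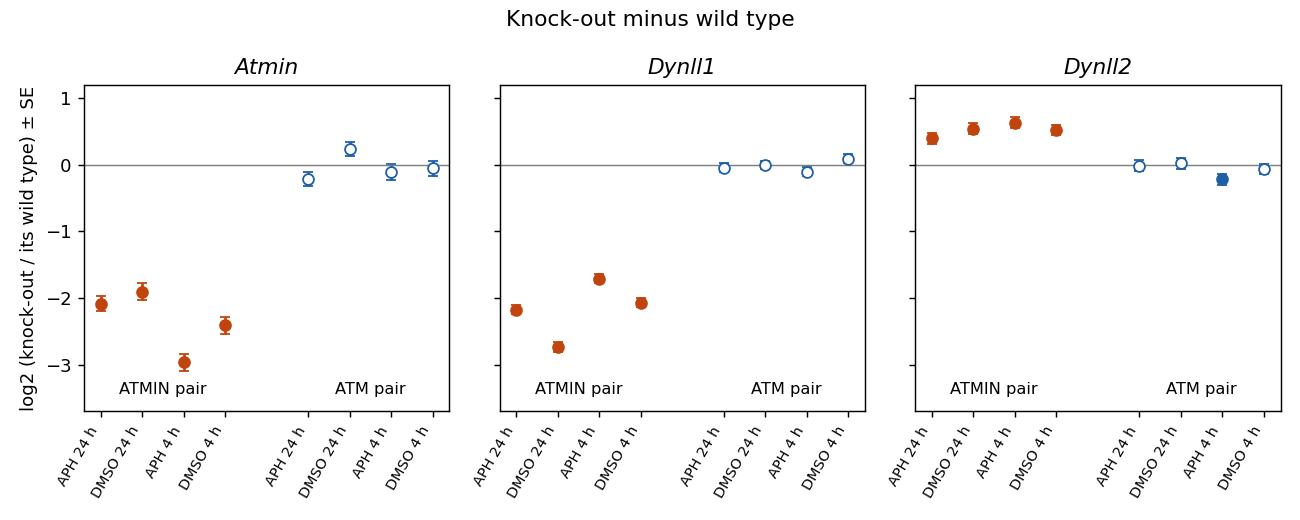
Log2 difference between each knock-out and its wild type, with a standard error derived from the edgeR test, for the 3 genes in 4 conditions. Filled points passed the test and open points did not. Atmin and Dynll1 lie between −1.71 and −2.97 in the ATMIN pair, while 11 of the 12 points of the ATM pair are open.

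The differences between the pairs were tested in the same fit, as the ATMIN pair difference minus the ATM pair difference. For Dynll1 it was −2.13 ± 0.10 and −2.73 ± 0.10 at 24 h, with APH and in DMSO, and −1.61 ± 0.10 and −2.16 ± 0.10 at 4 h. Atmin gave −1.87 ± 0.16 and −2.14 ± 0.17 at 24 h and −2.86 ± 0.18 and −2.36 ± 0.17 at 4 h. Dynll2 gave 0.41 ± 0.11 and 0.52 ± 0.11 at 24 h and 0.85 ± 0.11 and 0.59 ± 0.11 at 4 h. All 12 passed the test, with the highest adjusted p at 0.00215 for Dynll2 after APH for 24 h. Among all tested genes 57.4% and 56.2% passed at 24 h, with APH and in DMSO, and 52.5% and 53.5% at 4 h.

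The wild-type lines themselves differed in the 3 genes. Atmin was lower in wtATM than in wtATMIN in all 4 conditions, at log2 differences of −0.69 ± 0.10 and −0.40 ± 0.10 at 24 h, with APH and in DMSO, and −0.84 ± 0.10 and −0.45 ± 0.10 at 4 h. In each condition both wtATM samples were below both wtATMIN samples. Dynll2 was higher in wtATM in all 4, at 0.22 ± 0.08 and 0.28 ± 0.08 at 24 h and 0.44 ± 0.08 and 0.44 ± 0.08 at 4 h. Dynll1 was lower in wtATM, at −0.16 ± 0.07 after APH for 24 h, −0.17 ± 0.07 after APH for 4 h and −0.28 ± 0.07 in DMSO at 4 h, and differed by 0.02 ± 0.07 in DMSO at 24 h, where it was not called. The share of tested genes called between these lines was 63.4% and 61.7% at 24 h, with APH and in DMSO, and 57.5% and 57.2% at 4 h. Marker levels also differed between these lines: the sum of 5 blood markers ran from 9.08 to 18.8 CPM in wtATM and from 0.532 to 1.88 CPM in wtATMIN, and that of 5 neural markers from 5.86 to 11.6 CPM in wtATM and from 37.2 to 70.4 CPM in wtATMIN. Their part in the differences was not tested. Each of the 3 Dynll1 calls was lost in at least 1 fit that left out a library: the DMSO 4 h call without wtATMIN replicate 2 (−0.17), the APH 4 h call without any 1 of its 4 libraries (−0.15 to −0.19), and the APH 24 h call likewise (−0.11 to −0.18). The Dynll2 calls at 24 h were lost without wtATMIN DMSO replicate 1 (0.21) and without wtATM APH replicate 2 (0.20), and with library size as the only scaling (0.17 in DMSO and 0.08 with APH).

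Ordered over the 16 groups, the mean level of Atmin ran from 31.9 CPM in wtATMIN after APH for 4 h to 4.10 CPM in the ATMIN knock-out after APH for 4 h. The 4 wtATMIN groups came first, without overlap between neighbours, then the 8 groups of the ATM pair, most of which overlapped their neighbour, and last the 4 ATMIN knock-out groups. For Dynll1 the highest group was wtATMIN in DMSO at 4 h with 211 CPM, the lowest outside the ATMIN knock-out was the ATM knock-out after APH for 4 h with 159.6 CPM, and the next was the ATMIN knock-out after APH for 4 h with 59.0 CPM. For Dynll2 the ends were 231 CPM in the ATMIN knock-out after APH for 4 h and 124 CPM in wtATMIN in DMSO at 24 h, and 11 of the 15 pairs of neighbours overlapped.

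Per length, Dynll1 fell behind Dynll2 in the ATMIN knock-out. On the scale of CPM per kilobase of annotated exons, Dynll1 made up 15.0% and 13.7% of the sum of Dynll1 and Dynll2 after APH for 24 h, 10.8% and 10.0% in DMSO at 24 h, 14.9% and 15.6% after APH for 4 h and 13.5% and 13.5% in DMSO at 4 h in the knock-out. In wtATMIN these shares were 50.5% and 49.3%, 55.2% and 50.6%, 47.0% and 48.5%, and 48.1% and 48.6%. The ranges did not overlap: 10.0% to 15.6% in the knock-out and 47.0% to 55.2% in wtATMIN. Over 8 samples each the share averaged 13.4% ± 2.00 in the knock-out and 49.7% ± 2.51 in wtATMIN (SD), with p = 0.000155 in a two-sided exact permutation test, the smallest p that 8 against 8 can give. The 8 samples of a line span 4 conditions and are not replicates of 1 condition.

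In the ATM pair the same share averaged 42.2% ± 3.92 in the knock-out and 41.4% ± 5.17 in wtATM (SD, n = 8 each; exact permutation p = 0.697), and the ranges of 38.0% to 48.0% and 35.2% to 49.0% overlapped. In DMSO the share averaged 47.9% at 24 h and 38.9% at 4 h in the ATM knock-out. In wtATM it averaged 48.3% and 36.3%, so each SD includes this difference between times. The summed level of both genes per length averaged 87.6 CPM per kilobase in the ATMIN knock-out and 104 in wtATMIN (exact permutation p = 0.00357, n = 8 each), and 110.2 in the ATM knock-out against 114 in wtATM (exact permutation p = 0.396, n = 8 each). Each permutation test pools samples of 4 conditions, which are not replicates of 1 condition. At 24 h the group means of this sum were 81.6 with APH and 73.3 in DMSO in the ATMIN knock-out, against 106 and 95.8 in wtATMIN. At 4 h they were 99.5 and 96.0 in the ATMIN knock-out, against 104 and 112 in wtATMIN. The level of the share depended on the length used, because the annotated exons of Dynll1 include retained introns and sum to 3890 bases. With the longest transcript (2242 bases for Dynll1 and 2476 for Dynll2) the shares averaged 19.5% in the ATMIN knock-out and 60.8% in wtATMIN. The summed level was then 104 CPM per kilobase in the knock-out and 148 in wtATMIN.

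**Figure D3:**
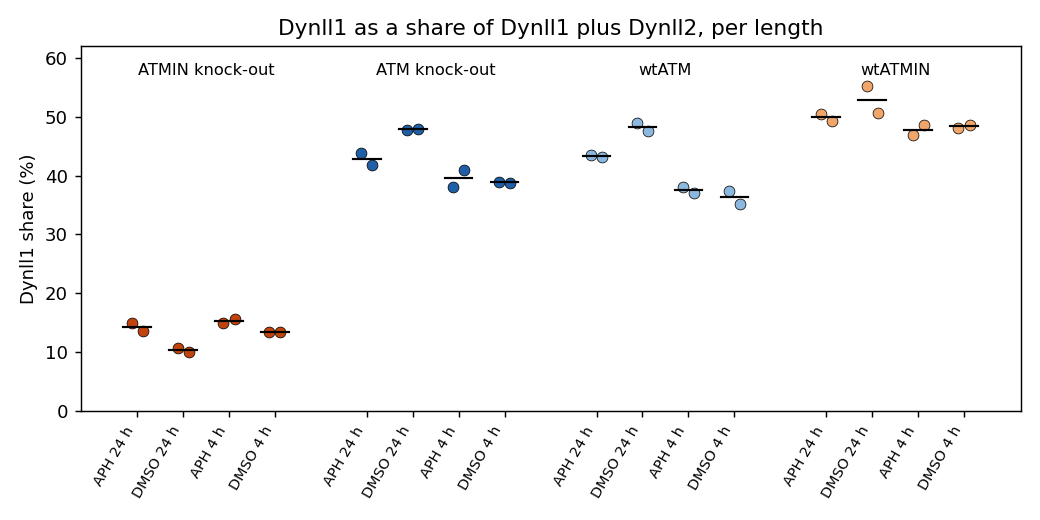
Dynll1 as a percentage of the sum of Dynll1 and Dynll2, both in CPM per kilobase of annotated exons. Each point is 1 sample and each bar the mean of 2. The 8 ATMIN knock-out samples lie between 10.0% and 15.6%, and all other samples lie at 35.2% or above.

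Dynll1 was higher with APH than in DMSO of the same time in the ATMIN knock-out. After 24 h its 46.5 and 44.5 CPM with APH stood above the 30.3 and 28.9 CPM of DMSO, a level of 1.54 times DMSO (log2 0.62 ± 0.08, adjusted p = 1.39e-07). After 4 h its 56.5 and 61.6 CPM stood above 51.6 and 49.0 CPM in DMSO, with a smaller difference of 0.23 ± 0.07 (adjusted p = 0.0234). The DMSO level was itself lower at 24 h than at 4 h (−0.76 ± 0.08). Both APH samples of 24 h lay below both DMSO samples of 4 h. APH and DMSO samples did not overlap at either time, and even the highest APH sample was far below the 190.3 CPM of the lowest wtATMIN sample. The 4 h call was lost without either DMSO replicate (0.27 and 0.19) or APH replicate 2 (0.17), and with no filter on low counts (0.22). In wtATMIN Dynll1 differed by 0.06 ± 0.07 at 24 h and −0.13 ± 0.07 at 4 h between APH and DMSO, and neither value passed the test, although the 4 h value was called without wtATMIN DMSO replicate 1 (−0.24).

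The response of Dynll1 in the ATMIN knock-out minus that in wtATMIN was 0.56 ± 0.10 at 24 h (adjusted p = 0.000988), where 2.43% of tested genes were called. At 4 h it was 0.36 ± 0.10 (adjusted p = 0.0947), where 0.671% were called. That value was called by DESeq2 (0.38) and without wtATMIN DMSO 4 h replicate 1 (0.47). At 4 h Atmin gave −0.56 ± 0.19 (adjusted p = 0.242) and Dynll2 0.11 ± 0.11, and neither was called. At 24 h the other members gave −0.14 ± 0.11 for Dynll2 and −0.18 ± 0.18 for Atmin and were not called. In the ATM pair the difference of APH responses called no member by edgeR at either time, against 3.92% of tested genes at 24 h and 11.4% at 4 h. At an unadjusted p under 0.05 Atmin passed at 24 h (−0.45 ± 0.15) and Dynll1 at 4 h (−0.20 ± 0.10), and DESeq2 called no member. Without replicate 1 of the ATM knock-out APH 4 h libraries Dynll1 (−0.29) and Dynll2 (−0.34) were called, and with library size as the only scaling Dynll1 was (−0.30).

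Atmin itself rose with APH in wtATMIN. It had 27.2 and 29.8 CPM with APH and 20.7 and 20.4 CPM in DMSO at 24 h (log2 0.47 ± 0.10, adjusted p = 0.000353). At 4 h it had 32.9 and 30.9 CPM with APH and 26.0 and 25.0 CPM in DMSO (0.32 ± 0.10, adjusted p = 0.0196). Both APH samples were above both DMSO samples at each time. The 4 h call was lost without any 1 of its 4 libraries (0.27 to 0.36), by DESeq2 (0.32) and in the authors' deposited table, which gave a log2 fold change of 0.29 with an adjusted p of 0.0594. In the ATMIN knock-out Atmin had 6.77 and 6.65 CPM with APH and 5.20 and 5.81 CPM in DMSO at 24 h, a difference of 0.29 ± 0.14 that was not called, and −0.23 ± 0.17 at 4 h.

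Dynll2 rose with APH in wtATMIN at 24 h, with 141 and 149 CPM against 115 and 132 CPM in DMSO (log2 0.23 ± 0.08, adjusted p = 0.0279). The call was lost without DMSO replicate 1 (0.11) or either APH replicate (0.25 and 0.19), and with no filter on low counts (0.20). In the ATMIN knock-out it differed by 0.09 ± 0.08 at 24 h and 0.02 ± 0.08 at 4 h, and neither was called. The share of tested genes that APH changed in the ATMIN knock-out was 30.2% at 24 h and 20.4% at 4 h, and in wtATMIN 28.8% at 24 h and 15.0% at 4 h.

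In the ATM knock-out both light chains were lower with APH at 4 h. Dynll1 had 168 and 151 CPM with APH and 178 and 192 CPM in DMSO (log2 −0.21 ± 0.07, adjusted p = 0.0163), and Dynll2 had 192 and 153 CPM with APH and 196 and 214 CPM in DMSO (−0.24 ± 0.08, adjusted p = 0.0214). These are the APH libraries that stand apart in depth and in Gm42418. Without APH replicate 2 the values were −0.15 for Dynll1 and −0.10 for Dynll2, and without DMSO replicate 2 they were −0.17 and −0.19, and both calls were lost in each fit. Without APH replicate 1 Dynll2 was at −0.44. A fit of these groups alone called neither gene (−0.19 and −0.22). APH changed 27.9% of tested genes in this line at 24 h and 29.4% at 4 h.

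In the same line at 24 h edgeR called no member. Dynll1 (−0.17 ± 0.07) and Atmin (−0.27 ± 0.11) had an unadjusted p under 0.05, and DESeq2 called 1 of them, Dynll1. A fit of these groups alone called both (−0.17 for Dynll1 and −0.28 for Atmin), as did leaving Gm42418 out of the library size (−0.19 and −0.30). Atmin was also called without APH replicate 2 (−0.42). In wtATM no member was called at either time, while APH changed 28.7% of tested genes at 24 h and 5.58% at 4 h. There 1 member, Dynll2, had an unadjusted p under 0.05 at 24 h (0.17 ± 0.08) and no member had one at 4 h, and DESeq2 called none. Dynll2 at 24 h was called in a fit of these groups alone (0.18) and with library size as the only scaling (0.22).

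**Figure D4:**
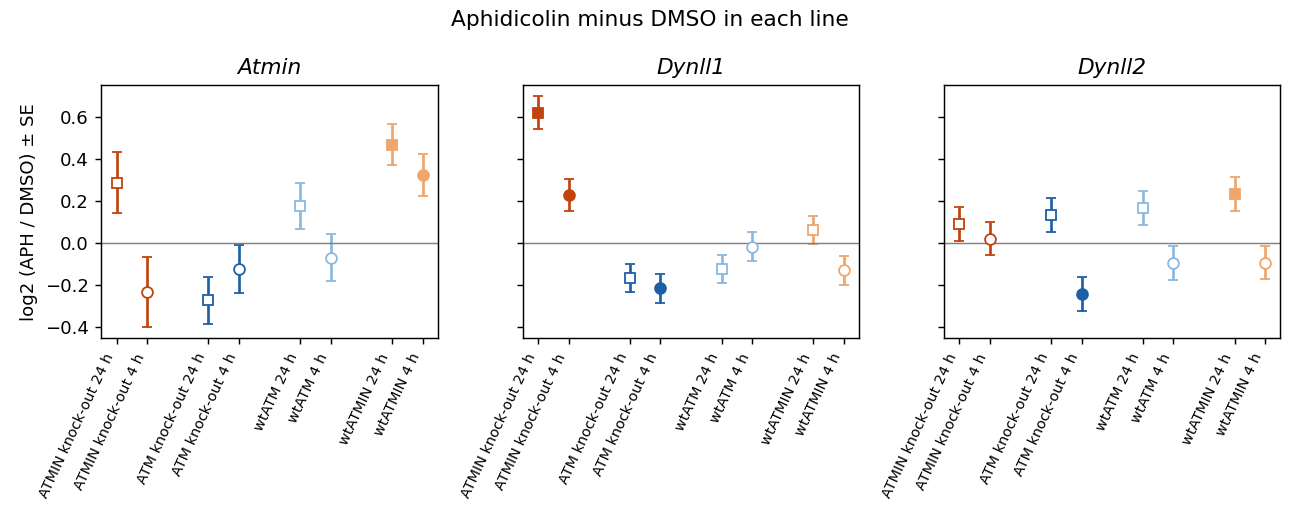
Log2 difference between APH and DMSO with its standard error, for the 3 genes in each line at 24 h (squares) and 4 h (circles). Filled points passed the test and open points did not. The highest point is Dynll1 in the ATMIN knock-out at 24 h, at 0.62.

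Levels of the light chains also differed between the 24 h and 4 h samples. Time in culture and any batch of libraries cannot be told apart here. In DMSO, Dynll2 was lower at 24 h than at 4 h in all 4 lines, at log2 differences of −0.34 ± 0.08 in the ATMIN knock-out, −0.36 ± 0.08 in wtATMIN, −0.42 ± 0.08 in the ATM knock-out and −0.51 ± 0.08 in wtATM. In each line both 24 h samples were below both 4 h samples, as in the ATMIN knock-out, with 177 and 182 CPM at 24 h and 233 and 221 CPM at 4 h. Dynll1 was lower at 24 h in the ATMIN knock-out, with 30.3 and 28.9 CPM against 51.6 and 49.0 CPM at 4 h (−0.76 ± 0.08, adjusted p = 5.06e-10). It was higher at 24 h in wtATM (0.20 ± 0.07, adjusted p = 0.0139), with 199.9 and 199 CPM against 177 and 171 CPM at 4 h. That call was lost without either 24 h library (0.20 and 0.21) or 4 h replicate 2 (0.18).

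In wtATMIN (−0.10 ± 0.07) and the ATM knock-out (0.10 ± 0.07) Dynll1 did not pass the test between 24 h and 4 h. The wtATMIN value was called without DMSO 4 h replicate 1 (−0.21). Atmin was lower at 24 h in wtATMIN (−0.31 ± 0.10, adjusted p = 0.00929), a call lost with library size as the only scaling (−0.18) or without DMSO 4 h replicate 1 (−0.28). In wtATM it was at −0.26 ± 0.11 (adjusted p = 0.0502), which was called with RLE size factors (−0.28) and in a fit of these groups alone (−0.27). Between 24 h and 4 h in DMSO 47.2% of tested genes were called in the ATMIN knock-out, 55.5% in wtATMIN, 48.7% in the ATM knock-out and 46.4% in wtATM. Gm42418 differed between the 24 h and 4 h samples as well, with 552 and 517 CPM at 24 h and 14153 and 14505 CPM at 4 h in the DMSO samples of the ATMIN knock-out. With Gm42418 left out of the library size, no call of a member between 24 h and 4 h changed.

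Other genes of the dynein motor were counted from lists chosen by function, with the calls in the ATMIN knock-out given as in APH 24 h, DMSO 24 h, APH 4 h and DMSO 4 h. The shares of all tested genes called in either direction in these comparisons are those given above, between 42.1% and 50.6%. Called lower were 26.8%, 26.2%, 22.3% and 23.0% of all tested genes. Among 10 regulators and adaptors of dynein, 8, 9, 7 and 7 were lower in the knock-out. By edgeR 0 of them were higher in any of the 4 conditions, and neither DESeq2 nor an unadjusted p under 0.05 gave any. The median log2 difference of this list was −0.45, −0.46, −0.41 and −0.22, against −0.01 or nearer to 0 over all tested genes. Bicd1, an adaptor that links cargo to dynein, was lower, at a log2 difference of −1.59 ± 0.18, −1.72 ± 0.20, −1.61 ± 0.17 and −1.36 ± 0.16. Pafah1b1, which encodes the dynein regulator LIS1, was lower, at a log2 difference of −0.48 ± 0.07 and −0.60 ± 0.07 at 24 h, with APH and in DMSO, and at 4 h it was called in DMSO (−0.20 ± 0.07) but not with APH (−0.17 ± 0.07). In the ATM knock-out 7 of the 10 were called in each condition, 5, 5, 7 and 5 of them higher and the others lower, against 61.3%, 59.3%, 58.9% and 55.2% of all tested genes called there in either direction.

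Of 6 tested light chains other than Dynll1 and Dynll2, 4, 4, 3 and 4 were lower in the ATMIN knock-out, and 1 was higher in each of DMSO 24 h, APH 4 h and DMSO 4 h. Dynlt1b, a light chain of the Tctex family, was lower, at a log2 difference of −0.83 ± 0.11, −1.20 ± 0.11, −1.49 ± 0.12 and −1.75 ± 0.12. Dynlt1a, Dynlt1b, Dynlt1c and Dynlt1f are near-identical copies, so counts may be split among them, their single values are uncertain, and the 6 are not separate genes in such a count. Over all samples of a line, each of these copies averaged lower in the ATMIN knock-out than in wtATMIN. Dynlt3 and Dynlrb1 did not, at 55.2 and 124 CPM in the knock-out and 43.8 and 118 CPM in wtATMIN. In the ATM knock-out 5, 5, 6 and 4 of the 6 were called in either direction, 5, 5, 5 and 4 of them lower, against the shares of all tested genes given for that pair. The median log2 difference of these 6 was −1.24, −0.81, −0.63 and −0.74 in the ATM knock-out. In the ATMIN knock-out their median was −0.53, −0.92, −0.35 and −0.47. Of 5 heavy, intermediate and light intermediate chains of dynein-1, 2 were lower in the ATMIN knock-out in each condition and 1 was higher at 24 h, with APH and in DMSO (lower: 1 by DESeq2 at 24 h, with APH and in DMSO). Their medians lay between −0.29 and −0.076. Among those lower was Dync1li2, a light intermediate chain (−0.44 ± 0.06, −0.58 ± 0.06, −0.57 ± 0.06 and −0.71 ± 0.06). Dync1i1, 1 of the 5 chains, did not exceed 0.973 CPM in any sample, so its values lie near the floor.

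Dynactin, the complex that activates dynein, went both ways: 5, 4, 3 and 4 of 12 subunits were higher and 4, 3, 3 and 3 lower, with medians between −0.026 and 0.13. With library size as the only scaling 3 subunits were higher in APH 24 h and 1 in DMSO 4 h. Actr10, a subunit of its pointed end, was higher, at a log2 difference of 1.46 ± 0.08, 1.28 ± 0.08, 1.14 ± 0.08 and 1.12 ± 0.08, and Dctn6, another pointed-end subunit, was lower, at a log2 difference of −0.76 ± 0.09, −0.85 ± 0.09, −0.92 ± 0.10 and −0.97 ± 0.09. Of 5 dynein-2 subunits, which serve transport in cilia, 1, 1, 3 and 2 were higher and 1 was lower in DMSO 24 h, with medians between 0.0068 and 0.37, and the call in APH 24 h was not made by DESeq2. Among 14 proteins known to bind DYNLL1, 6, 4, 3 and 5 were higher and 3, 4, 4 and 3 lower, with medians between −0.10 and 0.082. Nek9, a mitotic kinase that binds DYNLL1, was higher, at a log2 difference of 1.18 ± 0.06, 1.24 ± 0.06, 0.97 ± 0.07 and 1.00 ± 0.07. Of 7 partners of ATMIN in ATM signalling, 1 was lower in each condition, and 3, 1 and 2 were higher in APH 24 h, DMSO 24 h and DMSO 4 h, with medians between −0.083 and −0.0012.

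With APH for 24 h in the ATMIN knock-out, 4 of the 6 other light chains and 6 of the 10 regulators and adaptors were higher, as was Dynll1. Of all tested genes 30.2% were called there in either direction, and 2648 of the 18484 were higher. The 6 light chains include the near-identical Dynlt1 copies, so these are not counts of separate genes. In wtATMIN at 24 h 4 of the 10 regulators and adaptors rose, and edgeR, DESeq2 and an unadjusted p under 0.05 gave 0 of the 6 light chains. Of the 18484 tested genes 2505 were higher there. In wtATM at 24 h 5 of these 6 light chains rose, against 28.7% of all tested genes called there in either direction and 2666 of the 18484 higher.

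The genes beside each member on its chromosome were read in the ATMIN pair, 5 tested genes on each side. Around Atmin 6, 8, 7 and 7 of 10 neighbours were lower in the knock-out, in APH 24 h, DMSO 24 h, APH 4 h and DMSO 4 h. Over all tested genes 26.8%, 26.2%, 22.3% and 23.0% were lower in these comparisons. Cenpn, a centromere gene that ends 1885 bases before Atmin, was lower, at a log2 difference of −0.33 ± 0.09, −0.47 ± 0.09, −0.50 ± 0.10 and −0.51 ± 0.09. Cmc2, Gcsh and Cmip were lower in all 4 conditions as well, with log2 differences between −0.31 and −0.94, all smaller than the difference of Atmin.

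Around Dynll1 2 of 10 neighbours were called lower in each condition, near the 26.8%, 26.2%, 22.3% and 23.0% of all tested genes. Called higher were 6, 4, 5 and 5 of the 10. Of all 18484 tested genes 4404, 4332, 3652 and 4048 were called higher in these comparisons. Coq5, an enzyme of ubiquinone synthesis, lies 137 bases from Dynll1 on the opposite strand and was higher, at a log2 difference of 0.69 ± 0.08, 0.71 ± 0.08, 0.56 ± 0.08 and 0.56 ± 0.08. The counts are not stated to use strand, and no annotated gene of the count table overlapped a member. Around Dynll2 5, 5, 2 and 5 of 10 neighbours were higher and 2, 2, 1 and 1 lower, with Vezf1, a zinc finger transcription factor, higher at log2 differences of 0.85 ± 0.07 to 1.27 ± 0.07.

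**Figure D5:**
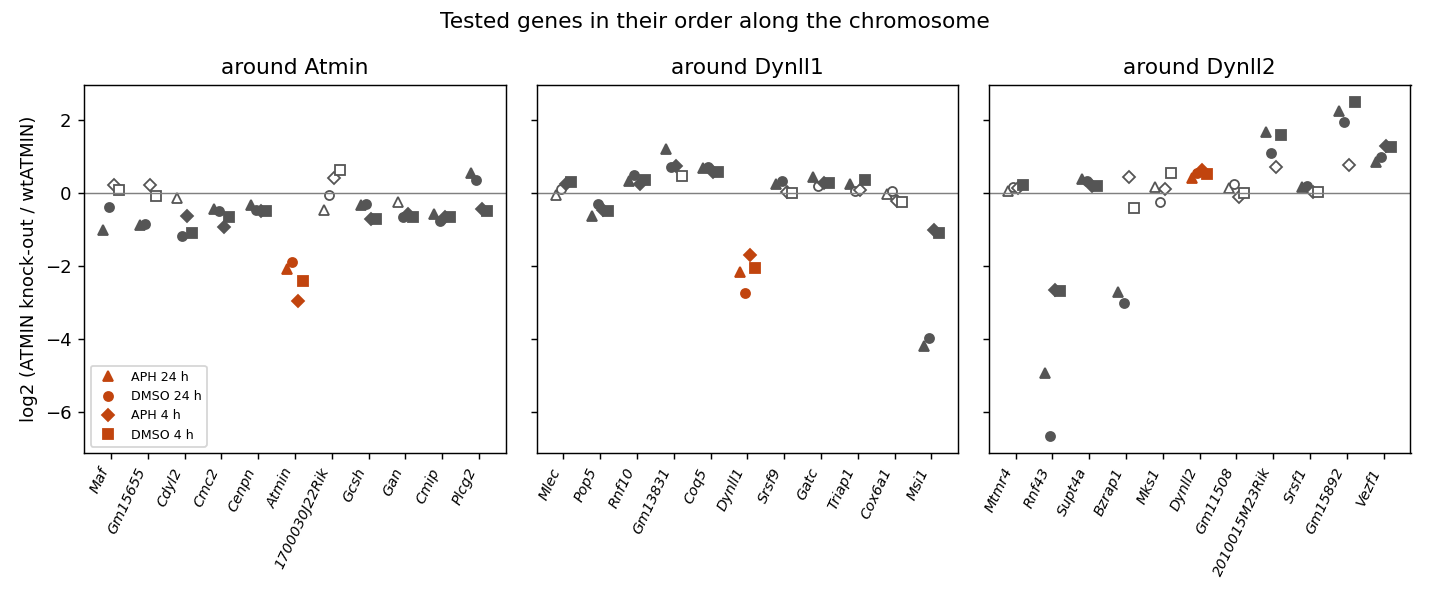
Log2 difference between the ATMIN knock-out and wtATMIN for each member (orange) and the 5 tested genes on either side (grey), in their order along the chromosome, not to scale. Filled symbols passed the test, open ones did not, and the shape gives the condition. Most neighbours of Atmin lie below 0, and those of Dynll1 and Dynll2 lie on both sides of it.

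The genes whose pattern was most like each member were found from the mean absolute difference of centred log2 CPM over the 16 group means, among 11579 genes. For Atmin these were Zfp13, Dtx3l, Dynll1, Gclc and Psmb10, at distances of 0.28 to 0.33, and Dynll1 ranked 3 at 0.30. For Dynll1 they were Osbpl7, Bicd1, Atmin, Rhpn2 and Gclc, and Atmin ranked 3. Bicd1 averaged 3.64 ± 1.05 CPM in the ATMIN knock-out and 10.7 ± 2.51 in wtATMIN (SD, n = 8 each), and 10.6 ± 2.96 in the ATM knock-out and 13.7 ± 2.82 in wtATM. Dynll2 was most like Wipi2, Nit1, Ogdh, Chrac1 and Rnf10, at distances of 0.10 to 0.11.

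Over the 8 groups of the ATMIN pair alone, Dynll1 ranked 32nd in likeness to Atmin and Atmin 65th in likeness to Dynll1, and Jak3 and Lama5 came first. These ranks are descriptions over group means of the same libraries and carry no test.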

How the data were processed

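The authors deposited raw counts per gene for 32 RNA-seq libraries, with Ensembl gene IDs and symbols, and their own comparison tables, whose log2 fold changes and adjusted p-values are quoted as the authors' deposited values. The tools named are DESeq2 1.6.3, TopHat2 2.0.13 and Bowtie2 2.4.0 and the build is mm10, per the submitters' processing notes. The counting tool, strand setting and annotation release are not given in the sources used here. AT and UT in the tables' names were read as APH and DMSO. In the authors' comparison files, 120 columns of per-sample values were not used.

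The raw counts were fitted with edgeR 4.0.16 (limma 3.58.1, R 4.3.3): filterByExpr, TMM scaling, 1 mean for each of the 16 groups, glmQLFit with robust estimation and glmQLFTest, with Benjamini-Hochberg adjustment over 18484 genes and a threshold of 0.05. The scripts were tested on simulated data. The test reports no standard error. Each one printed was derived as the size of the log2 difference over the square root of the F statistic of that test. CPM are per TMM-scaled library. Total counts ran from 9321329 to 21020662, which limits Atmin most, at 59 reads in its lowest sample. Lengths, coding sequences and neighbours came from GENCODE M21 on GRCm38, and promoters from RefSeq (GRCm38.p6).

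The members and gene lists were chosen with earlier results of these data known. From each list the genes named were among those with the smallest p that passed the test, and neighbours and most similar genes followed a set rule. Pafah1b1 at 4 h, and the choice among the named genes, were made after values were seen. Alternatives were RLE size factors (DESeq2's method), library size alone, no count filter, no Gm42418 in the library size, DESeq2 1.42.0, the compared groups alone, a replicate block and each library left out. The authors' gene length was added for the share after seeing the data.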

Additional observations from a re-analysis of the deposited data

Results flagged for a closer look

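Each value here is a difference between effects that was itself tested in the edgeR quasi-likelihood fit, with Benjamini-Hochberg adjustment over all tested genes. Groups hold 2 samples, so no single sample was screened for distance from its group.

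The knock-out difference of the ATMIN pair minus that of the ATM pair differed from 0 for all 3 genes in all 4 conditions. After APH for 24 h it was −1.87 on the log2 scale for Atmin, −2.13 for Dynll1 and 0.41 for Dynll2. In DMSO at 24 h it was −2.14 for Atmin, −2.73 for Dynll1 and 0.52 for Dynll2. After APH for 4 h it was −2.86 for Atmin, −1.61 for Dynll1 and 0.85 for Dynll2, and in DMSO at 4 h −2.36 for Atmin, −2.16 for Dynll1 and 0.59 for Dynll2.

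The APH response of Dynll1 at 24 h differed between the lines of the ATMIN pair, being 0.56 higher in the ATMIN knock-out than in wtATMIN on the log2 scale. Both ATMIN knock-out APH samples of 24 h were above both DMSO samples of 24 h. They were below both DMSO samples of 4 h in that line.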

How the results depend on the processing

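Of 96 results on the members, 51 were called and 38 of these kept their call under every alternative run; 13 lost it somewhere. Of the 45 not called, 12 were called somewhere. Among 1152 alternative values no called one changed sign, and 31 had the other sign without a call on either side. All 12 ATMIN pair results and all 12 differences between the pairs kept their calls, as did the 24 h response difference of Dynll1. The cause of the changes below was not tested.

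With RLE size factors, Atmin between 24 h and 4 h in wtATM was −0.28 and Dynll1 in wtATM against wtATMIN after APH for 24 h was −0.14. With library size alone, Dynll1 in the ATM pair after APH for 4 h was −0.18, Atmin there after APH for 24 h −0.29, the APH response of Dynll2 in wtATM at 24 h 0.22, the ATM pair response difference of Dynll1 at 4 h −0.30, Atmin between times in wtATMIN −0.18, and Dynll2 in wtATM against wtATMIN 0.080 with APH and 0.17 in DMSO at 24 h. With no count filter, the APH response of Dynll1 in the ATMIN knock-out at 4 h was 0.22, that of Dynll2 in wtATMIN at 24 h 0.20, and Dynll1 between the wild types −0.12 after APH for 24 h and −0.18 after APH for 4 h. Without Gm42418, the 24 h responses in the ATM knock-out were −0.30 for Atmin and −0.19 for Dynll1, and Dynll1 between the wild types after APH for 24 h was −0.12. DESeq2 gave 0.32 for the 4 h response of Atmin in wtATMIN, −0.17 for the 24 h response of Dynll1 in the ATM knock-out, 0.38 for the ATMIN pair response difference of Dynll1 at 4 h and −0.14 for Dynll1 between the wild types after APH for 24 h. In the compared groups alone, Dynll2 in the ATM pair after APH for 4 h was −0.24, the 4 h responses in the ATM knock-out −0.19 for Dynll1 and −0.22 for Dynll2, the 24 h responses there −0.28 for Atmin and −0.17 for Dynll1, that of Dynll2 in wtATM 0.18, and Atmin between times in wtATM −0.27.

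Leaving out each library in turn gave these ranges. In the ATM pair, Atmin ran from −0.36 to −0.080 after APH and from 0.16 to 0.31 in DMSO at 24 h, Dynll1 from −0.20 to −0.037 and Dynll2 from −0.40 to −0.067 after APH for 4 h. Responses ran from −0.31 to −0.15 for Dynll1 and −0.44 to −0.10 for Dynll2 in the ATM knock-out at 4 h, −0.42 to −0.14 for Atmin there at 24 h, 0.17 to 0.29 for Dynll1 in the ATMIN knock-out at 4 h, 0.27 to 0.36 for Atmin and −0.24 to −0.018 for Dynll1 in wtATMIN at 4 h, and 0.11 to 0.33 for Dynll2 there at 24 h. Response differences at 4 h ran from 0.24 to 0.47 for Dynll1 in the ATMIN pair, and from −0.29 to −0.13 for Dynll1 and −0.34 to −0.0032 for Dynll2 in the ATM pair. Between times, Dynll1 ran from 0.18 to 0.23 in wtATM and −0.21 to 0.016 in wtATMIN, and Atmin from −0.33 to −0.28 in wtATMIN. Between the wild types, Dynll1 ran from −0.18 to −0.11 after APH for 24 h, −0.19 to −0.15 after APH for 4 h and −0.39 to −0.17 in DMSO at 4 h, and Dynll2 from 0.20 to 0.29 with APH and 0.21 to 0.38 in DMSO at 24 h.

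A replicate block changed none of the 96 calls, with Dynll1 in the ATMIN pair in DMSO at 24 h at −2.73. Deviations of same-numbered samples correlated between −0.086 and 0.070. These values show no large shared effect, but they cannot tell whether the replicate numbers pair the samples. With 2 samples a group and 59 reads in its lowest sample, Atmin in the ATMIN knock-out has the widest error. With the authors' gene length the Dynll1 share averaged 21.1% in the ATMIN knock-out and 63.1% in wtATMIN.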
